A study of Mus musculus with 14 samples.

Results

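The genes of cholesterol and fatty acid synthesis were followed through neural stem cells (NSCs) of different origin, embryonic stem cells (ESCs), and murine embryonic fibroblasts (MEFs). The set holds 32 genes, 24 of the sterol arm and 8 of the fatty acid arm, chosen by gene symbol among 16593 genes with a probe on Illumina MouseRef-8 v2 arrays. Of these, 29 genes had 40 probes, and 28 genes (20 of the sterol arm and 8 of the fatty acid arm) passed the filter on low values, as did 8435 genes in all. Ggps1 had 2 probes that did not pass, with log2 signals of at most 7.77 on any array, and the expression of Mvk, Fdft1, and Acat2 was not analysed here. Expression was measured on 14 arrays, 2 for each of 7 groups. The iPS-NSCs #1 and iPS-NSCs #3 are lines differentiated in vitro from induced pluripotent stem cells (iPSCs), which had been made with retroviral Oct4, Sox2, Klf4, and c-Myc from MEFs of OG2+/-/ROSA26+/- mice that carry Oct4-GFP and neo/lacZ. The iPS-cNSCs came from the same kind of iPSCs by way of the brain of chimeric embryos at 13.5 dpc, where iPSCs had been aggregated with B6C3F1 embryos, and were selected with neomycin. The NED-NSCs are the X-gal-negative NSCs of the chimeric embryos, which carry none of the transgenes. ESCs were derived from 3.5 dpc blastocysts and are labelled as OG2 heterozygous double transgenic. MEFs and brain-NSCs, the NSCs with which the other groups were compared, were taken from 13.5 dpc fetuses that were ROSA26/OG2 heterozygous double transgenic. All NSC lines were expanded with EGF and bFGF in medium with N2 supplement. The basal medium given for brain-NSCs was NS-A and that for iPS-NSCs was DMEM/F12, so that derivation and medium cannot be told apart there. ESC and MEF medium contained serum, so that cell type and medium cannot be told apart for ESCs and MEFs. Each iPS-NSC line stands for 1 derivation, and nothing in the labels or methods says whether the 2 arrays of a group came from different cultures. The p-values therefore rest on the spread of replicate arrays, which may be no more than technical.

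Cholesterol is built from acetyl-CoA through mevalonate, isoprenoid units, squalene, and lanosterol, and the sterol-regulated transcription factor SREBP2 drives most genes of this route. When sterols are abundant, the INSIG proteins hold SCAP and SREBP in the endoplasmic reticulum, and transcription of the route falls. The related SREBP1 mainly drives the genes that make fatty acids and place double bonds in them. In the nervous system cholesterol is made largely on site, since circulating lipoproteins do not cross the blood-brain barrier, and astrocytes and myelinating cells are known for high rates of synthesis.

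Signals are log2 values, normalized to a common distribution. A gene was taken to be above background on an array where its deposited log2 value, before kept probes were normalized again, reached 7.7. The detection p of the intensities passed 0.05 at that value. A gene is said to be higher or lower (called) where the Benjamini-Hochberg adjusted p of limma over all kept probes was under 0.05 and the change over 2-fold. Changes are differences of log2 signals. Cell identity was checked with marker lists. The mean log2 signal of the NSC markers was 9.67 to 10.38 on the arrays of the other NSC groups and 8.09 to 8.44 in ESCs and MEFs, against 10.33 and 10.45 in brain-NSCs, while Pax6 was above background in none of the groups and Hes5 was not above it in iPS-NSCs #1, nor Prom1 in iPS-NSCs #1, iPS-cNSCs, or NED-NSCs. All 8 pluripotency markers were above background on both ESC arrays and all 8 fibroblast markers on both MEF arrays. In the other groups 1 to 3 of the pluripotency markers were above background on both arrays, with 3 in iPS-NSCs #1 and in NED-NSCs. The mean log2 signal of that list was 7.545 to 7.912 on their arrays, against 12.28 and 12.43 in ESCs. The arrays of iPS-cNSCs and MEFs stood apart in the deposited signals. Their lowest signals were 79.8 to 96.2, against 119 to 132 on the arrays of NED-NSCs, ESCs, and brain-NSCs, and the interquartile range of log2 signals over kept probes was 2.77 to 2.89, against 2.23 to 2.42. The signals of the iPS-NSC arrays were not matched to columns by name and were not used. Replicate arrays differed most in iPS-cNSCs, with a Euclidean distance of 26.9 log2 units, against 10.4 to 18.4 in the other groups.

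The promoters of the sterol genes were searched for sequence features. The genes were chosen as regulated by SREBP, and the motifs with earlier results of these data known. The shares below therefore describe the set and are no independent evidence. RefSeq promoter windows of GRCm38.p6, from 250 bases before to 50 bases after the annotated start, were found for 25 members, 20 of the sterol arm and 5 of the fatty acid arm. These 20 are not the same as the 20 sterol genes tested on the arrays. They include Acat2, Mvk, and Ggps1, which were not tested, and lack the tested genes Fdps, Sqle, and Stard4. Scd1, Scd2, and Fads1 of the fatty acid arm had no window either. The CCAAT box of the factor NF-Y, searched as CCAAT on both strands, was present in 18 of 20 sterol promoters (90%), against 2 of 5 fatty acid promoters and 44.5% of the 6914 tested genes with a window. The GC box of Sp1, searched as GGGCGG, was present in 18 of 20 sterol promoters, against 70.9% of the tested genes. The E-box CACGTG was found in 5 of 20, against 12% of tested genes. The sterol regulatory element, bound by SREBP, was searched as TCACNCCAC and as CACCCCAC. The first form was found in Hmgcs1 alone among the members and in 1.44% of all 27025 genes with a window, and the second in Hmgcs1, where it overlaps the first, and in Acat2 (3.3% of all genes). The members are printed below that the later comparisons turn on, 5′ to 3′ on the strand of the gene, with CCAAT or its reverse complement ATTGG in capitals, and in Hmgcs1 also the sterol regulatory element. The windows are Hmgcs1 (chr13:119690101-119690400, plus strand), Cyp51 (chr5:4104648-4104947, minus strand), Msmo1 (chr8:64733529-64733828, minus strand), Hsd17b7 (chr1:169969156-169969455, minus strand), and Insig1 (chr5:28071162-28071461, plus strand).
Hmgcs1: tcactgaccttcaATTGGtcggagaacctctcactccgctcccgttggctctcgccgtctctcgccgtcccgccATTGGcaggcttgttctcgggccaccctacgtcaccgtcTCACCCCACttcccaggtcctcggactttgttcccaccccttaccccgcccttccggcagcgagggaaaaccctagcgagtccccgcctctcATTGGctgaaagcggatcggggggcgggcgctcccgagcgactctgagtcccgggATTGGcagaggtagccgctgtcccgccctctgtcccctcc
Cyp51: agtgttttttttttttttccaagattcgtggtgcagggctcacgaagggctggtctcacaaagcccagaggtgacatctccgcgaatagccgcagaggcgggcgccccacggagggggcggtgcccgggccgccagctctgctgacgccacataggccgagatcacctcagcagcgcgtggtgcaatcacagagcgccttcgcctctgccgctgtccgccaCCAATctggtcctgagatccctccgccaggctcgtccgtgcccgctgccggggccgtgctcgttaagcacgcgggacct
Msmo1: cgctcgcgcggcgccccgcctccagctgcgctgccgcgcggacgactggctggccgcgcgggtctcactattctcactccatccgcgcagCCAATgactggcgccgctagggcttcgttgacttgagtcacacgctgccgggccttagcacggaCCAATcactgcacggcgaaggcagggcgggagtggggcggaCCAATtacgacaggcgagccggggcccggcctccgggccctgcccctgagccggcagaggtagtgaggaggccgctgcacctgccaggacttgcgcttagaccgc
Hsd17b7: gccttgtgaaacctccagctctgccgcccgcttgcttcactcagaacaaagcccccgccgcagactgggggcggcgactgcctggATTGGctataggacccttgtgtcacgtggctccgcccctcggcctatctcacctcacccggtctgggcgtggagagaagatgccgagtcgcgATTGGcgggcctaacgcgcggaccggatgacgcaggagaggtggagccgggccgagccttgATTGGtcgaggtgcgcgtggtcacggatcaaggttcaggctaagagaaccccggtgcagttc
Insig1: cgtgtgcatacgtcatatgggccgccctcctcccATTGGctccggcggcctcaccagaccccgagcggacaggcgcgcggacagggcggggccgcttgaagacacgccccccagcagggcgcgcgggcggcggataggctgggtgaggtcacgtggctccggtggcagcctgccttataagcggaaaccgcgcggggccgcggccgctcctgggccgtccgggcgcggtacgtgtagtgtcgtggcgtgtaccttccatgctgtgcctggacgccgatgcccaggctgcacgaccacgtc
Hmgcs1 held the CCAAT box at 4 places, Msmo1 and Hsd17b7 each at 3, and Cyp51 and Insig1 at 1. A match of letters is a description of the window and was not tested for binding.

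Over the groups, ESCs had the lowest mean signal for most genes of both arms, and the NSCs derived from iPSCs had the highest. ESCs were lowest for 16 of 20 sterol genes (80%) and 6 of 8 fatty acid genes (75%), against 23.4% of all genes tested. The sterol genes with another lowest group were Mvd, Lss, and Ebp (NED-NSCs) and Msmo1 (iPS-NSCs #1). The highest mean lay in iPS-cNSCs for 8 sterol genes, in iPS-NSCs #3 for 7, in iPS-NSCs #1 for 4, and in MEFs for 1, while no sterol gene was highest in NED-NSCs, ESCs, or brain-NSCs. Insig1 counts for iPS-cNSCs by its brightest probe, while on its other kept probes an iPS-NSC line was highest. Of all genes, 12.8% were highest in iPS-cNSCs, 8.42% in iPS-NSCs #3, and 8.45% in iPS-NSCs #1. The shares were 23.7% in MEFs, 29.6% in ESCs, 9.32% in NED-NSCs, and 7.75% in brain-NSCs. For 20 genes, none in NED-NSCs or brain-NSCs is near these shares. Of the fatty acid genes, 4 were highest in iPS-cNSCs. The difference between the highest and the lowest group mean was 3.47 log2 units for Hsd17b7, the widest of the sterol genes, and 0.57 for Pmvk, the narrowest of these. In these bulk RNA samples, fewer cells of a type and less RNA per cell cannot be told apart.

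**Figure D1:**
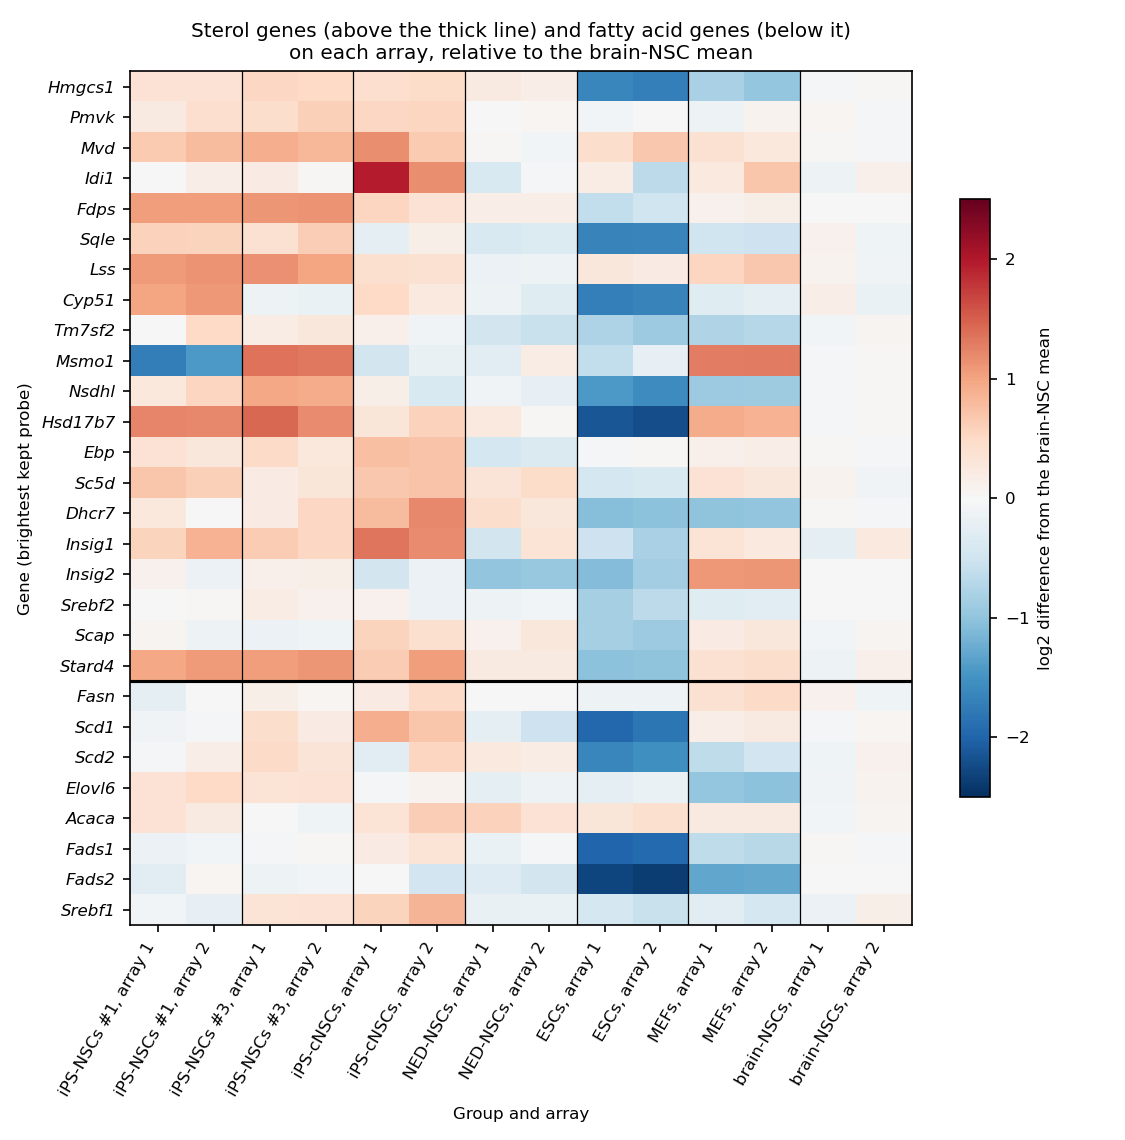
Heat map of the 28 tested genes (rows, sterol genes above the thick line and fatty acid genes below it) on the 14 arrays (columns), coloured by the log2 difference from the mean of the brain-NSC arrays. The ESC columns are blue for most rows, while Msmo1 is blue on the iPS-NSCs #1 arrays (9.57 and 9.84) and red on the iPS-NSCs #3 and MEF arrays (12.57 to 12.64).

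The early steps lead from acetyl-CoA to farnesyl diphosphate. Hmgcs1, which makes HMG-CoA, had log2 signals of 15.61 and 15.59 in iPS-NSCs #1, 15.76 and 15.74 in iPS-NSCs #3, 15.66 and 15.71 in iPS-cNSCs, 15.47 and 15.4 in NED-NSCs, 13.61 and 13.53 in ESCs, 14.43 and 14.27 in MEFs, and 15.21 and 15.27 in brain-NSCs. It was lower in ESCs than in brain-NSCs (-1.67, standard error 0.0824, limma adjusted p = 4.2e-11), and every other NSC array lay above both brain-NSC arrays. These differences were within 2-fold (0.36 and 0.51 in lines #1 and #3, 0.44 in iPS-cNSCs, and 0.2 in NED-NSCs), and the highest deposited value of any probe was 15.99, close to the NSC signals. Fdps, the farnesyl diphosphate synthase, had signals of 14.29 and 14.29 in iPS-NSCs #1, 14.35 and 14.36 in iPS-NSCs #3, 13.78 and 13.61 in iPS-cNSCs, 13.42 and 13.42 in NED-NSCs, 12.62 and 12.75 in ESCs, 13.36 and 13.39 in MEFs, and 13.24 and 13.26 in brain-NSCs. The iPS-NSC arrays lay above those of every other group, with changes of 1.04 in line #1 and 1.11 in line #3 (limma adjusted p = 8e-08 and 2.6e-08). Idi1, the isomerase that provides the allylic building block, had its highest signals in iPS-cNSCs. Its signals were 8.53 and 8.67 in iPS-NSCs #1, 8.72 and 8.55 in iPS-NSCs #3, 10.47 and 9.68 in iPS-cNSCs, 8.13 and 8.48 in NED-NSCs, 8.71 and 7.85 in ESCs, 8.75 and 9.2 in MEFs, and 8.38 and 8.64 in brain-NSCs. Both iPS-cNSC arrays were above all other arrays. The same held for Ebp, Dhcr7, Scap, Scd1, Fads1, Srebf1, and the brightest probe of Insig1. The share of all genes with this order was not counted. For Idi1, replicates spread most in iPS-cNSCs (SD 0.56, n = 2) and ESCs (SD 0.6, n = 2). The phosphomevalonate kinase gene Pmvk and the decarboxylase gene Mvd had no call. Pmvk stayed within 0.53 of brain-NSCs in either direction, and Mvd was 0.72, 0.87, and 0.91 above them in iPS-NSCs #1, iPS-NSCs #3, and iPS-cNSCs.

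The next steps oxidize squalene and close the rings. Sqle, which adds the first oxygen and is a rate-limiting step, had signals of 13.96 and 13.93 in iPS-NSCs #1, 13.76 and 14 in iPS-NSCs #3, 13.13 and 13.52 in iPS-cNSCs, 12.99 and 13.04 in NED-NSCs, 11.71 and 11.72 in ESCs, 12.89 and 12.86 in MEFs, and 13.49 and 13.27 in brain-NSCs. It was lower in ESCs than in brain-NSCs (-1.66, limma adjusted p = 4e-09), while the changes in the other groups were within 2-fold on this probe. Lss, which makes lanosterol, had signals of 11.66 and 11.72 in iPS-NSCs #1, 11.74 and 11.59 in iPS-NSCs #3, 11.01 and 10.98 in iPS-cNSCs, 10.46 and 10.47 in NED-NSCs, 10.88 and 10.81 in ESCs, 11.14 and 11.27 in MEFs, and 10.68 and 10.52 in brain-NSCs. Its 4 iPS-NSC arrays exceeded all others, 1.09 above brain-NSCs in line #1 and 1.06 in line #3 (limma adjusted p = 1e-07 and 9.1e-08). Without 1 array (iPS-NSCs #3 replicate 1 or brain-NSCs replicate 2) the change in line #3 was 0.98, just under 2-fold. In ESCs Lss was 0.25.

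After lanosterol, methyl groups are removed and double bonds are moved to give cholesterol. Cyp51, the demethylase that opens this stretch, had signals of 13.14 and 13.24 in iPS-NSCs #1, 12.03 and 11.98 in iPS-NSCs #3, 12.65 and 12.39 in iPS-cNSCs, 12.02 and 11.84 in NED-NSCs, 10.45 and 10.48 in ESCs, 11.86 and 11.9 in MEFs, and 12.31 and 11.99 in brain-NSCs. It rose by 1.04 in iPS-NSCs #1 and was lower in ESCs (-1.69), with limma adjusted p-values of 2.2e-06 and 1.6e-09, while iPS-NSCs #3 were at -0.15 (adjusted p = 0.32). The rise in line #1 was 0.98 without iPS-NSCs #1 replicate 2 and 0.88 without brain-NSCs replicate 2. Msmo1, the oxidase that starts the removal of the next methyl groups, went the other way in the lines. Its signals were 9.57 and 9.84 in iPS-NSCs #1, 12.63 and 12.6 in iPS-NSCs #3, 10.82 and 11.1 in iPS-cNSCs, 11.03 and 11.47 in NED-NSCs, 10.68 and 11.07 in ESCs, 12.57 and 12.59 in MEFs, and 11.26 and 11.31 in brain-NSCs. Line #1 lay below every other array and line #3 level with MEFs above the rest, with changes of -1.58 and 1.33 (limma adjusted p = 5.2e-07 and 2.7e-06) and of 1.29 in MEFs. Nsdhl and Hsd17b7 finish the removal that Msmo1 begins. Hsd17b7 had signals of 13.25 and 13.25 in iPS-NSCs #1, 13.47 and 13.21 in iPS-NSCs #3, 12.35 and 12.61 in iPS-cNSCs, 12.28 and 12.06 in NED-NSCs, 9.91 and 9.83 in ESCs, 12.96 and 12.91 in MEFs, and 12 and 12.08 in brain-NSCs. Both iPS-NSC lines were higher (1.21 and 1.3), and ESCs were lower by the largest margin of any sterol gene tested (-2.17, standard error 0.109, limma adjusted p = 5.1e-11). On its brightest probe Nsdhl had signals of 10.47 and 10.73 in iPS-NSCs #1, 11.17 and 11.12 in iPS-NSCs #3, 10.34 and 9.82 in iPS-cNSCs, 10.12 and 9.99 in NED-NSCs, 8.76 and 8.62 in ESCs, 9.3 and 9.3 in MEFs, and 10.17 and 10.23 in brain-NSCs. It was lower in ESCs (-1.51) and just within 2-fold in iPS-NSCs #3 (0.95). Dhcr7, the reductase of a last step, had signals of 10.84 and 10.57 in iPS-NSCs #1, 10.78 and 11.08 in iPS-NSCs #3, 11.36 and 11.78 in iPS-cNSCs, 11.01 and 10.85 in NED-NSCs, 9.51 and 9.54 in ESCs, 9.58 and 9.58 in MEFs, and 10.61 and 10.54 in brain-NSCs. It was lower in ESCs (-1.05) and just within 2-fold in MEFs (-0.99) and iPS-cNSCs (1). The reductase gene Tm7sf2, the isomerase gene Ebp, and the desaturase gene Sc5d had no call against brain-NSCs, with changes from -0.84 to 0.73 over the groups.

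**Figure D2:**
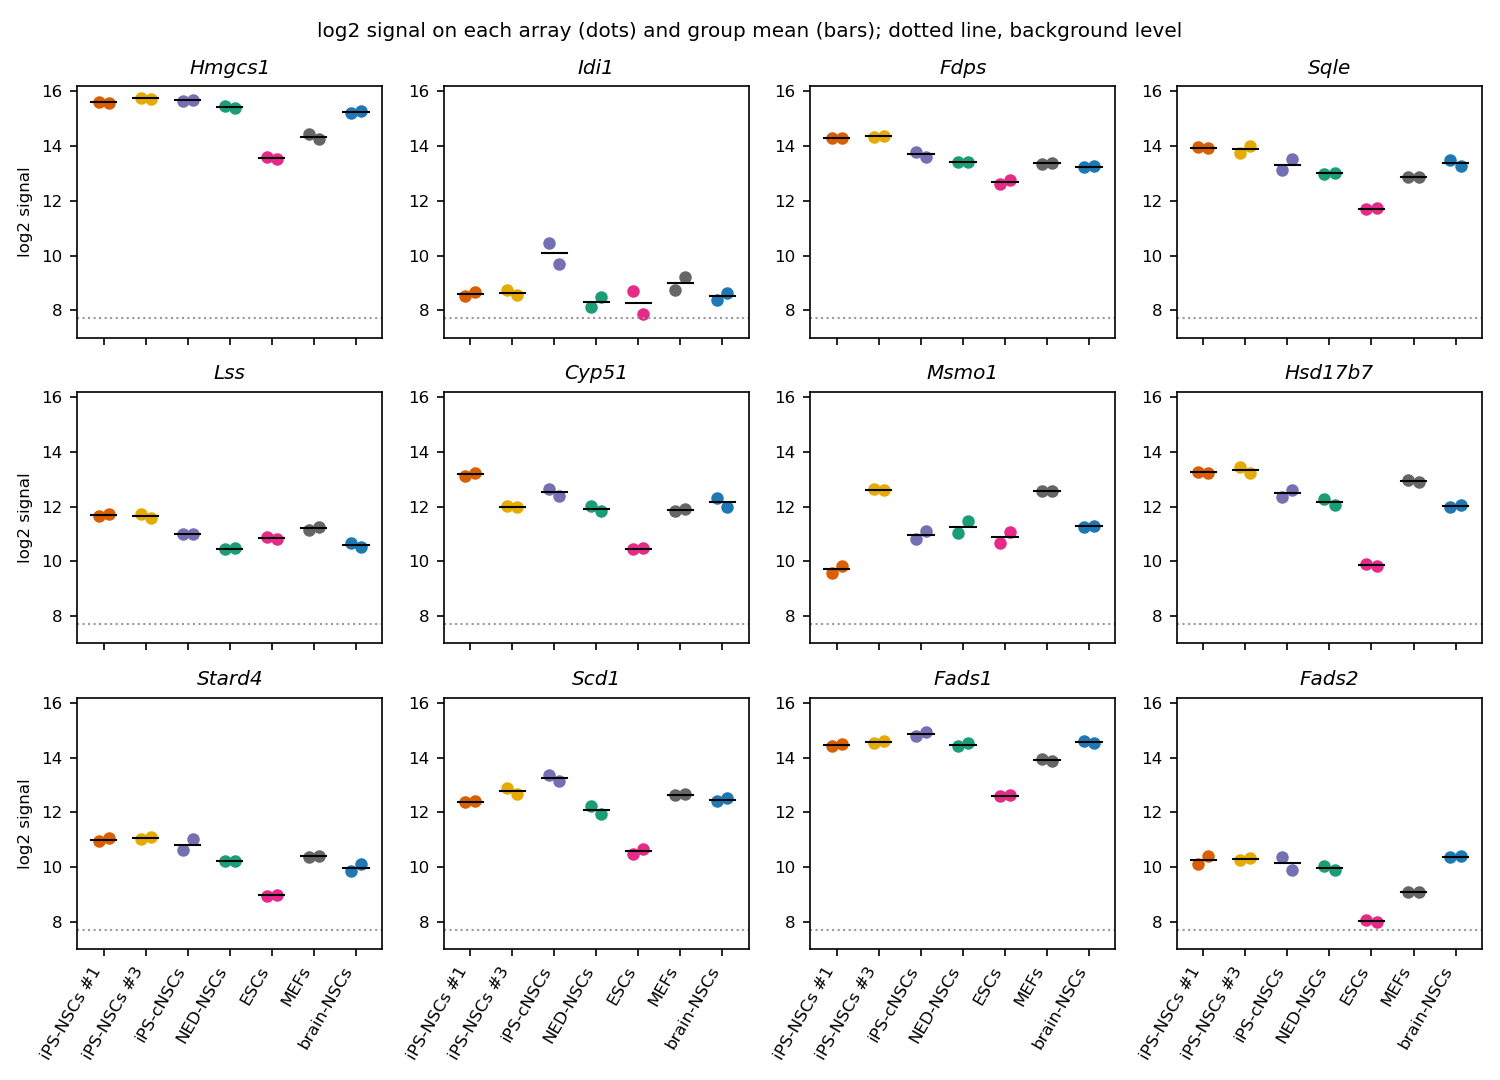
log2 signal (y axis) of 12 synthesis genes on each array (dots, 2 a group) with the group mean (bars), by group (x axis). The dotted line is the background level of 7.7. The ESC dots lie lowest for Hmgcs1 (13.53 and 13.61), Hsd17b7 (9.83 and 9.91), and Fads2 (8.01 and 8.07), and the lines iPS-NSCs #1 and #3 part for Cyp51 and Msmo1.

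Among the genes that sense and carry sterols, Stard4 and the INSIG genes varied most. Stard4, a cytosolic sterol carrier, had signals of 10.95 and 11.05 in iPS-NSCs #1, 11.03 and 11.09 in iPS-NSCs #3, 10.62 and 11.02 in iPS-cNSCs, 10.22 and 10.21 in NED-NSCs, 8.96 and 8.99 in ESCs, 10.36 and 10.42 in MEFs, and 9.86 and 10.11 in brain-NSCs. It was 1.02 and 1.07 higher in iPS-NSCs #1 and #3 and lower in ESCs (-1.01), with limma adjusted p-values of 4.2e-06, 1.8e-06, and 1.1e-06. The calls were near the 2-fold limit. Without brain-NSCs replicate 1 the changes in lines #1 and #3 were 0.89 and 0.95, and without brain-NSCs replicate 2 that in ESCs was -0.89, with adjusted p still under 0.05. Line #1 without its replicate 2 was at 0.97, and ESCs without their replicate 1 also fell just short of the limit. Insig1 is itself a target of SREBP, and its brightest probe had signals of 11.31 and 11.63 in iPS-NSCs #1, 11.4 and 11.27 in iPS-NSCs #3, 12.1 and 11.94 in iPS-cNSCs, 10.3 and 11.1 in NED-NSCs, 10.24 and 9.94 in ESCs, 11.1 and 11.01 in MEFs, and 10.51 and 11 in brain-NSCs. On this probe iPS-cNSCs were 1.26 above brain-NSCs (limma adjusted p = 9.8e-05) and iPS-NSCs #1 and #3 were 0.71 and 0.58 above them. The other probes of Insig1 gave another order of the groups and are described with the plot of probes. Insig2, which acts alike on SCAP but is not driven by SREBP, had signals of 10.06 and 9.8 in iPS-NSCs #1, 10.08 and 10.11 in iPS-NSCs #3, 9.5 and 9.8 in iPS-cNSCs, 8.97 and 9.02 in NED-NSCs, 8.88 and 9.09 in ESCs, 11.04 and 11.05 in MEFs, and 9.95 and 9.96 in brain-NSCs on its brightest probe. It was higher in MEFs (1.09, limma adjusted p = 2.3e-07). The transcription factor gene Srebf2 and its escort gene Scap had no call. Srebf2 was within 0.15 of brain-NSCs in the NSC groups and -0.75 in ESCs, and Scap was 0.47 in iPS-cNSCs and -0.87 in ESCs.

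The fatty acid arm varied mainly in its desaturases. Scd1 and Scd2 place the first double bond in saturated fatty acids. Scd1 had signals of 12.37 and 12.42 in iPS-NSCs #1, 12.91 and 12.68 in iPS-NSCs #3, 13.37 and 13.16 in iPS-cNSCs, 12.24 and 11.95 in NED-NSCs, 10.5 and 10.66 in ESCs, 12.63 and 12.69 in MEFs, and 12.42 and 12.51 in brain-NSCs, and ESCs lay below all other arrays by more than 1 log2 unit (-1.89, limma adjusted p = 4.4e-10). Scd2, the form prominent in brain, had signals of 11.04 and 11.23 in iPS-NSCs #1, 11.54 and 11.39 in iPS-NSCs #3, 10.8 and 11.6 in iPS-cNSCs, 11.3 and 11.26 in NED-NSCs, 9.44 and 9.53 in ESCs, 10.42 and 10.6 in MEFs, and 10.97 and 11.17 in brain-NSCs and was -1.58 in ESCs. Fads1 and Fads2 desaturate polyunsaturated fatty acids. Fads1 had signals of 14.43 and 14.51 in iPS-NSCs #1, 14.53 and 14.6 in iPS-NSCs #3, 14.79 and 14.93 in iPS-cNSCs, 14.41 and 14.53 in NED-NSCs, 12.6 and 12.63 in ESCs, 13.95 and 13.88 in MEFs, and 14.61 and 14.55 in brain-NSCs. Fads2 had signals of 10.1 and 10.42 in iPS-NSCs #1, 10.26 and 10.32 in iPS-NSCs #3, 10.38 and 9.9 in iPS-cNSCs, 10.06 and 9.91 in NED-NSCs, 8.07 and 8.01 in ESCs, 9.08 and 9.1 in MEFs, and 10.36 and 10.39 in brain-NSCs. In ESCs Fads1 was -1.97 and Fads2 -2.34 (limma adjusted p = 7.9e-12 and 2.2e-10), and Fads2 was also lower in MEFs (-1.29). The elongase gene Elovl6 was just within 2-fold in MEFs (-0.99). Acaca, which makes malonyl-CoA, stayed within 0.48 of brain-NSCs in all groups, and the factor gene Srebf1 changed by -0.49 in ESCs to 0.7 in iPS-cNSCs. Fasn, the fatty acid synthase gene, was at the edge of detection, with signals of 7.43 and 7.66 in iPS-NSCs #1, 7.79 and 7.7 in iPS-NSCs #3, 7.86 and 8.13 in iPS-cNSCs, 7.65 and 7.66 in NED-NSCs, 7.53 and 7.52 in ESCs, 8.03 and 8.13 in MEFs, and 7.77 and 7.55 in brain-NSCs. By its deposited values it was above background on neither ESC array and on 1 of 2 arrays each of iPS-NSCs #1 and brain-NSCs. Fasn stays in the counts of fatty acid genes given here, with that limit: it is 1 of the genes lowest in ESCs, and in iPS-cNSCs it was 0.34 relative to brain-NSCs (limma adjusted p = 0.014).

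NSCs differentiated from iPSCs in vitro expressed several sterol genes over 2-fold more highly than brain-NSCs. No fatty acid gene passed that limit, which for 8 genes is near the share of all genes called and does not set the arms apart. In iPS-NSCs #1, 5 of 20 sterol genes were higher (Fdps, Lss, Cyp51, Hsd17b7, and Stard4) and 1 was lower (Msmo1), while 2.99% of all genes tested were called higher and 2.02% lower. In iPS-NSCs #3, 5 of 20 were higher (Fdps, Lss, Msmo1, Hsd17b7, and Stard4) and none was lower, against 3.39% and 3.32% of all genes. Taking the mean of the lines, 4 were higher (Fdps, Lss, Hsd17b7, and Stard4), against 2.63% of all genes, and none was lower, against 2.26%. The median change of the sterol genes was 0.38 in line #1 and 0.5 in line #3, and that of all genes -0.0245 and -0.00311. With an adjusted p under 0.05 alone, 13 sterol genes were higher and 1 lower in line #1, and 14 were higher in line #3. By that rule 21.1% of all genes were higher and 23.7% lower in line #1, and 22% and 21.5% in line #3. For the mean of the lines 13 sterol genes were higher and none lower, against 22.7% and 24.1% of all genes. The fatty acid genes had medians of -0.09 and 0.21. None of the 8 was called by limma or by a local-pooled-error test in either line, while 2 in line #1 and 3 in line #3 were higher at limma's adjusted p alone, and 2 and 4 at an unadjusted p under 0.05. The mean signals of fibroblast and astrocyte markers lay above those of brain-NSCs in both lines, while the counts above background did not always. The mean signal of 8 fibroblast markers was 8.21 and 8.18 in iPS-NSCs #1 and 7.51 and 7.58 in iPS-NSCs #3, against 7.46 on both brain-NSC arrays, with 3, 1, and 1 markers above background on both arrays of these groups. Col1a1, Col3a1, Lum, Postn, and Pdgfrb were above it on no array of either line. The mean signal of 6 astrocyte markers was 10.37 and 10.4 in line #1 and 10.64 and 10.61 in line #3, against 10.23 and 10.22 in brain-NSCs, with 3, 4, and 3 markers above background on both arrays, and Gfap and Aqp4 on no array of either line. In brain-NSCs the astrocyte markers above it on neither array were Aqp4 and S100b, not Gfap. The part of the fibroblast and astrocyte markers in the sterol result was not tested. All comparisons with brain-NSCs share the same 2 brain-NSC arrays.

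Between the lines the sterol arm differed in Cyp51 and Msmo1, which both act after lanosterol. Cyp51 was 1.19 higher in iPS-NSCs #1 than in iPS-NSCs #3 (standard error 0.112, limma adjusted p = 7.9e-07), and Msmo1 was -2.91 (standard error 0.148, limma adjusted p = 5.7e-10). The arrays of the lines did not overlap for either gene, which a call over 2-fold makes likely and which adds no support. Cyp51 and Msmo1 were the calls among 20 sterol genes, 1 in each direction, where 1.91% of all genes were higher and 1.16% lower. No fatty acid gene was called by limma or the local-pooled-error test, and 1 was higher and 2 lower at adjusted p alone (14.5% and 15.8% of all genes), and likewise 1 and 2 at an unadjusted p under 0.05. Cyp51 and Msmo1 each had 1 probe.

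In iPS-cNSCs 15 of 20 sterol genes lay above brain-NSCs, against 46.1% of all genes, and 2 of 20 passed the 2-fold limit, Idi1 (1.56, limma adjusted p = 0.0001) and, on its brightest probe, Insig1 (1.26). Of all genes 3.81% were called higher and 2.51% lower. No fatty acid gene was called by limma or the local-pooled-error test. The median change was 0.45 for the sterol genes and 0.31 for the fatty acid genes, against -0.04 for all genes. At adjusted p alone 14 sterol genes were higher and 1 lower, and 5 fatty acid genes, Fasn included, were higher (also 5 at an unadjusted p under 0.05), where 25.9% of all genes were higher and 31.3% lower. The iPS-cNSC arrays had lower minimum signals and a wider spread than those of brain-NSCs (84.4 and 83.7 against 126 and 124), and rescaling moved them as a whole. Median scaling of the signals put the median of all genes at -0.23 and those of the sterol and fatty acid genes at 0.38 and 0.06. With neqc, which takes the background from the detection p-values and quantile normalizes, 5 sterol genes were higher, where 754 of all 8435 genes were. Scaled to the median of all probes 13 were higher, where 1914 of all genes were. The mean signal of 6 astrocyte markers was 10.94 and 10.95 in iPS-cNSCs, where 5 were above background on both arrays, against 10.23 and 10.22 in brain-NSCs, where 3 were, while Gfap was above background on neither iPS-cNSC array. The markers above it on neither brain-NSC array were Aqp4 and S100b, not Gfap. The part of scaling and of astrocyte markers in the sterol result was not tested.

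Compared with iPS-NSCs, the mean of lines #1 and #3, iPS-cNSCs differed in Idi1 among 20 sterol genes (1.46, standard error 0.221, limma adjusted p = 3.8e-05), while 4.96% of all genes were higher and 3.11% lower. The mean of the lines hides genes in which they part. Msmo1 had a mean signal of 10.96 in iPS-cNSCs, 9.7 in line #1, and 12.62 in line #3, and Cyp51 12.52, 13.19, and 12. No test against a single line was run. The second Sqle probe, which differed more than the brightest, is described with the plot of probes. Of the 4 genes that were higher in iPS-NSCs than in brain-NSCs, Fdps, Lss, and Hsd17b7 were -0.63, -0.68, and -0.81 in iPS-cNSCs relative to iPS-NSCs, within 2-fold, and Stard4 was -0.21 (limma adjusted p = 0.08) and 0.84 relative to brain-NSCs. At adjusted p alone 6 sterol genes were higher and 6 lower, and 5 fatty acid genes, Fasn included, were higher and 1 lower (28.3% and 35.8% of all genes). Insig1 counts among the higher genes by its brightest probe (0.62), while its other probes were -1.2, called lower, and -0.6. No fatty acid gene passed the 2-fold limit by limma or the local-pooled-error test (5 higher and 1 lower at an unadjusted p under 0.05). Without iPS-cNSCs replicate 1, 1 more sterol gene was lower.

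Compared with NED-NSCs, which share the chimeric brain but carry no transgenes, Idi1 (1.77), Ebp (1.13), and Insig1 (1.32) of the sterol arm and Scd1 (1.17) of the fatty acid arm were higher in iPS-cNSCs, where 3.19% of all genes were higher and 2.3% lower. No member was lower. The limma adjusted p-values were 4e-05, 6.7e-08, 7.7e-05, and 6.5e-07. Ebp had signals of 10.76 and 10.72 in iPS-cNSCs and 9.57 and 9.65 in NED-NSCs. The groups did not overlap for these genes, which a call over 2-fold makes likely and which adds no support. Insig1 was -0.2 and 0.27 on its other probes and 0.92 on the brightest without NED-NSCs replicate 1. In this comparison 19 of 20 sterol genes were above 0, with a median of 0.51, and 17 were higher at adjusted p alone, against 44.6% and 23.2% of all genes. None was lower at adjusted p alone, against 30.6%. Neomycin selection, the transgenes, and the lowest signals of the arrays (84.4 and 83.7 against 126 and 132) differ with these groups and cannot be told apart from cell source.

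Between NED-NSCs and brain-NSCs none of 20 sterol and 8 fatty acid genes passed the 2-fold limit by limma or by the local-pooled-error test on the normalized values, where limma called 2.58% of all genes higher and 1.71% lower. At adjusted p alone 2 sterol genes were higher and 4 lower, and 1 fatty acid gene was higher and 2 were lower (20.2% and 18.6% of all genes). At an unadjusted p under 0.05 3 sterol genes were higher and 4 lower, and 1 fatty acid gene was higher and 2 were lower. With neqc 2 sterol genes were lower by over 2-fold, and 1 when signals were scaled to the median of all probes. Of all 8435 genes 345 and 203 were called lower in these settings. The medians were -0.05 and -0.15. Insig2 had the greatest change, -0.96 (95% confidence interval -1.2 to -0.73) on its brightest probe and 0 on the second.

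ESCs expressed the desaturases and several sterol genes at a lower level than brain-NSCs, and no member more highly by 2-fold. Of 20 sterol genes, 7 were lower (Hmgcs1, Sqle, Cyp51, Nsdhl, Hsd17b7, Dhcr7, and Stard4), and of 8 fatty acid genes, 4 were lower (Scd1, Scd2, Fads1, and Fads2), while 11.3% of all genes were lower and 9.28% higher. The medians were -0.79 for the sterol genes and -1.04 for the fatty acid genes, against 0.04 for all genes. At adjusted p alone 15 sterol genes were lower and 2 higher (Mvd, 0.56, and Lss, 0.25), where 32.6% of all genes were lower and 35.8% higher. With neqc 11 sterol genes were lower, where 1805 of all 8435 genes were called lower. The ESCs were derived and kept on MEF feeders. Of 8 fibroblast markers 4 were above background on both ESC arrays, with a mean signal of 7.97 and 7.98 over the list, against 11.57 and 11.71 in MEFs and 7.46 on both brain-NSC arrays, and Lum, Postn, and Pdgfrb were above background on neither ESC array. The part of feeder cells was not tested.

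In MEFs members were called about as often as all genes. Msmo1 (1.29) and Insig2 (1.09) were higher, 2 of 20 sterol genes, against 11.9% of all genes, and Fads2 (-1.29) was lower, 1 of 8 fatty acid genes, against 12.2%. Hsd17b7 was 0.9 above brain-NSCs and Hmgcs1, Nsdhl, and Dhcr7 were -0.89, -0.9, and -0.99, all within 2-fold. At adjusted p alone 8 sterol genes were higher and 7 lower (34.2% and 39.2% of all genes). With neqc 2 sterol genes were higher and 3 lower, and under median scaling 3 were higher and 1 lower. Of all 8435 genes 1384 were higher and 2093 lower with neqc, and 1143 and 1257 under median scaling. The median of the fatty acid genes was -0.46, but 0.02 when signals were scaled to the median of all probes, which put the median of all genes at 0.26. MEF arrays had lowest signals of 96.2 and 79.8, against 126 and 124 for brain-NSCs, and their part in the result was not tested.

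**Figure D3:**
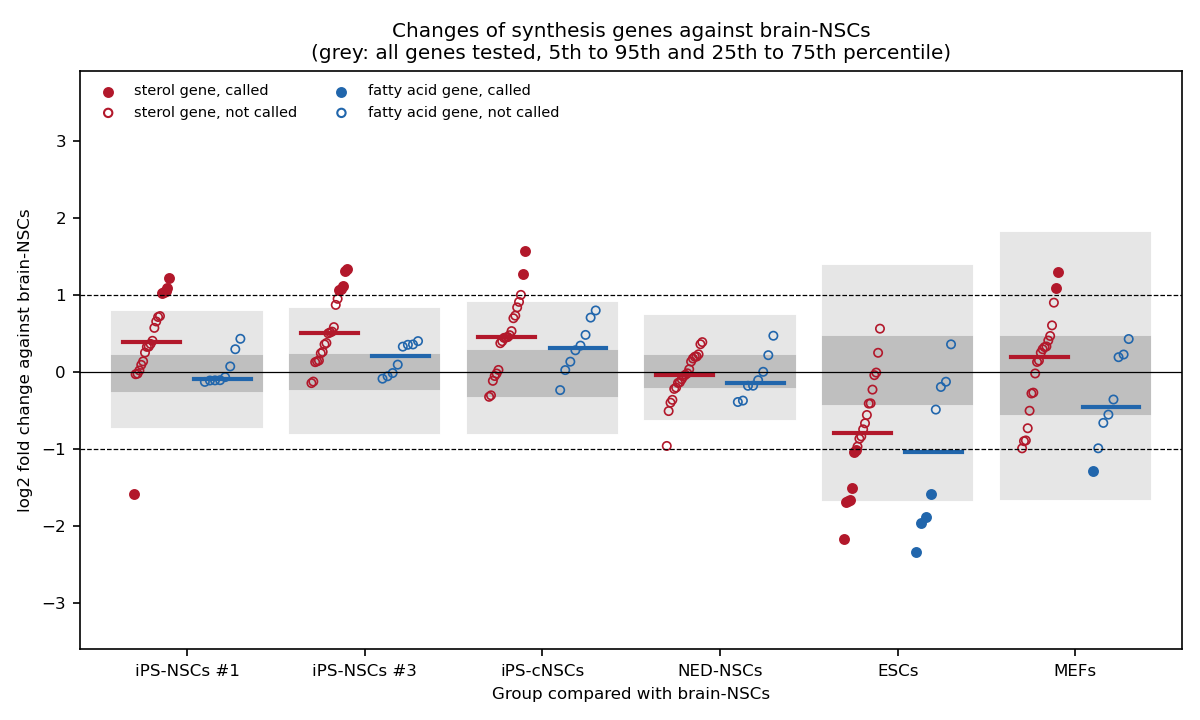
Changes of the tested genes against brain-NSCs (y axis, log2) in 6 groups (x axis), with sterol genes in red, fatty acid genes in blue, called genes filled, and arm medians as horizontal bars. Grey boxes span the 5th to 95th and the 25th to 75th percentile of all 8435 genes. The dashed lines mark 2-fold, the sterol medians are 0.38 and 0.5 in iPS-NSCs #1 and #3, and those of ESCs are -0.79 for sterol and -1.04 for fatty acid genes.

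Where a gene had several kept probes, they were not always alike. For Insig1, the second probe had signals of 11.3 and 11.69 in iPS-NSCs #1, 11.15 and 11.12 in iPS-NSCs #3, 10.17 and 10.06 in iPS-cNSCs, 10.35 and 10.28 in NED-NSCs, 9.12 and 9.22 in ESCs, 9.09 and 9.21 in MEFs, and 10.11 and 10.12 in brain-NSCs, and iPS-NSCs #1 and #3 were 1.38 and 1.02 above brain-NSCs on it, and 1.06 and 1.09 on the third, all called. In iPS-cNSCs, where the brightest probe was 1.26, these probes were 0 and 0.47. Insig1 was thus called in iPS-cNSCs on 1 of 3 probes, and in iPS-NSCs on the other pair but not on the brightest. For Sqle, the second probe was called higher in iPS-NSCs #1 (1.21) and lower in MEFs (-1.65, against -0.51 on the brightest), and was -1.32 in iPS-cNSCs relative to iPS-NSCs. In ESCs the Sqle probes were alike (-1.66 and -1.72). All 4 probes of Nsdhl were lower in ESCs, from -1.51 to -1.06. For Insig2, the second probe was -0.09 in ESCs, 0 in NED-NSCs, and 0.85 in MEFs, against -0.97, -0.96, and 1.09 on the brightest. Further probes of Insig1, Insig2, and Srebf1 did not pass the filter, with at most 3 of 14 arrays above background.

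**Figure D4:**
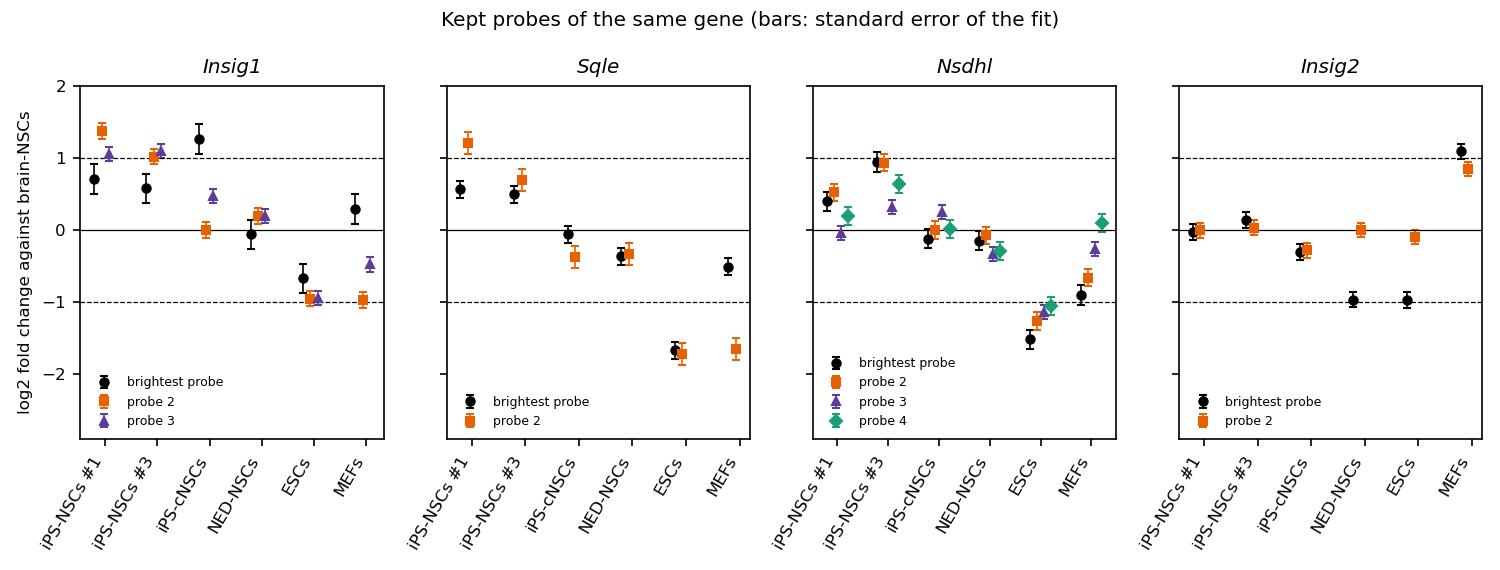
Changes against brain-NSCs (y axis, log2, with the standard error of the fit as bars) of each kept probe of Insig1, Sqle, Nsdhl, and Insig2 by group (x axis). For Insig1 the brightest probe is highest in iPS-cNSCs (1.26), where the second is at 0, and all probes of Nsdhl are lowest in ESCs.

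Other genes of the same pathways were read from a list of 42, of which 22 were tested and 7 had only probes that did not pass, while 13 were not analysed here. Acss2, which makes acetyl-CoA from acetate, was higher in iPS-NSCs #1 (1.17) and #3 (1.68, limma adjusted p = 3.6e-10) and lower in MEFs (-1.02). It was the 1 call among the 22 in each line, where 2.99% and 3.39% of all genes were called higher. Me1, the malic enzyme that supplies NADPH, was the 1 call in iPS-cNSCs (1.61, where 3.81% of all genes were higher) and was also higher in MEFs (1.53) and lower in ESCs (-1.15). In ESCs 2 were higher, the sterol reductase and lamin B receptor gene Lbr (1.17) and the farnesyltransferase subunit gene Fntb (1.24), and 3 were lower, Me1, the elongase gene Elovl5 (-1.02), and Hsd17b12 (-1.53), which acts in fatty acid elongation, close to the 9.28% and 11.3% of all genes called higher and lower there. In MEFs 4 were higher, among them the elongase gene Elovl1 (1.67) and the lysosomal sterol carrier gene Npc2 (1.48), and 3 were lower, against 11.9% and 12.2% of all genes. None of the 22 was called in NED-NSCs by limma (4 higher and 3 lower at adjusted p alone, and 6 and 3 at an unadjusted p under 0.05). Compared with NED-NSCs, iPS-cNSCs were higher in Me1 (1.15) and Npc2 (1.15), where 3.19% of all genes were.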

How the data were processed

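Labelled cRNA was hybridized by the authors on MouseRef-8 v2 BeadChips of Illumina, and signals were extracted with GenomeStudio 2011.1, as the submitters' processing notes state. The deposited log2 values had been quantile normalized by the authors (6.82 to 15.99, median 7.67 on every array). A second deposited table holds intensities before normalization, each with its detection p-value. The names of 10 signal columns matched an array, and the 8 columns of the remaining 4 arrays (signal and detection p) were left out. The authors' filter, a detection p under 0.05 on 7 or more of the 14 arrays, was applied as a log2 value of 7.7, where the detection p crossed 0.05 on the matched arrays (7.68 to 7.74, the same answer for 98.2% to 99.8% of probes and for 400 of 400 values of member probes). On the matched arrays 11916 to 12721 probes had a detection p under 0.05. The number of arrays limits the precision.

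The 12195 of 25697 probes kept were put through quantile normalization once more, and the largest shift of a value was 0.162. Gene symbols were those of the platform annotation (23978 probes with 1 symbol, 1719 with none). A gene was represented by its brightest kept probe by the mean of the 14 arrays. A model with 1 mean for each of 7 groups over all 14 arrays was fitted with limma 3.58.1 in R 4.3.3 (7 residual and 8.19 prior degrees of freedom). Code was tested on simulated data. Alternatives were other filters and normalizations, neqc and median scaling of the matched signals, the methods' local-pooled-error test, coded anew, other probes, other sample sets, a replicate block, and each array left out. The members, the other pathway genes, the marker lists, and the motifs were chosen with earlier results of these data known. Values on every array are given for members called in a comparison with brain-NSCs or with iPS-NSCs, and the promoters printed are those of members on which the results turn.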

Additional observations from a re-analysis of the deposited data

Results flagged for a closer look

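In 7 results the changes of a pair of groups relative to brain-NSCs differed by the test of the difference itself (limma, over 2-fold). Between iPS-NSCs #1 and iPS-NSCs #3, Cyp51 differed by 1.19 and Msmo1 by -2.91 log2 units. Between iPS-cNSCs and iPS-NSCs, Idi1 differed by 1.46. Between iPS-cNSCs and NED-NSCs, Idi1 differed by 1.77, Ebp by 1.13, Insig1 by 1.32, and Scd1 by 1.17. The value of Insig1 is that of its brightest probe, and its other probes gave -0.2 and 0.27.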

How the results depend on the processing

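Counts of called genes moved most where the 2-fold limit was dropped or where the deposited signals were scaled anew. At adjusted p under 0.05 alone, called sterol genes numbered 14 in iPS-NSCs #1, 14 in iPS-NSCs #3, 13 in the mean of the lines, 15 in iPS-cNSCs, 6 in NED-NSCs, 17 in ESCs, and 15 in MEFs, each against brain-NSCs, 12 in iPS-cNSCs against iPS-NSCs, 17 in iPS-cNSCs against NED-NSCs, and 4 between the lines. Fatty acid genes numbered 2 in iPS-NSCs #1, 3 in iPS-NSCs #3, 1 in their mean, 5 in iPS-cNSCs, 3 in NED-NSCs, 6 in ESCs, and 6 in MEFs, and 6, 4, and 3 in the other comparisons. With neqc on the matched signals, sterol genes called were 5 in iPS-cNSCs, 2 in NED-NSCs, 11 in ESCs, 5 in MEFs, and 5 in iPS-cNSCs against NED-NSCs, and fatty acid genes 1 in iPS-cNSCs, 2 in MEFs, and 2 in iPS-cNSCs against NED-NSCs. Of all 8435 genes, neqc called 754 higher and 746 lower in iPS-cNSCs, 516 and 345 in NED-NSCs, and 1179 and 1805 in ESCs. It called 1384 higher and 2093 lower in MEFs, and 656 and 630 in iPS-cNSCs against NED-NSCs. Median scaling gave 4 sterol genes in MEFs, where it called 1143 of all genes higher and 1257 lower. Scaling to the median of all probes, which lies under the background level and was chosen after seeing the data, gave 13 sterol and 3 fatty acid genes in iPS-cNSCs, 1 sterol gene in NED-NSCs, 4 sterol and 0 fatty acid genes in MEFs, and 18 sterol and 5 fatty acid genes in iPS-cNSCs against NED-NSCs. Of all genes, this scaling called 1914 higher and 59 lower in iPS-cNSCs, and 142 and 203 in NED-NSCs. It called 1863 and 666 in MEFs, and 2496 and 52 in iPS-cNSCs against NED-NSCs. It put the median of the fatty acid genes in MEFs at 0.0237. Without a filter, with the level on 2 or more arrays, and on the deposited values as they stand, 2 fatty acid genes were lower in MEFs. The mean of all probes and the second brightest probe (an alternative chosen after seeing the data) gave 1 sterol gene each in iPS-cNSCs, and the second brightest gave 3 in iPS-cNSCs against iPS-NSCs. On it Insig1 was -0.000758 in iPS-cNSCs against brain-NSCs and -0.198 against NED-NSCs.

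The scaling also moved all genes. Higher genes were 60.2% of all calls in iPS-cNSCs against brain-NSCs, but 29.6% under median scaling and 97% when scaled to all probes, and 58.1% against NED-NSCs, but 28.1% and 98%. Scaled to all probes the share was 41.2% in NED-NSCs (60.2% before), 29.9% in ESCs (45% before), and 73.7% in MEFs (49.5% before). The medians of all genes were then 0.558 in iPS-cNSCs, -0.108 in NED-NSCs, -0.132 in ESCs, 0.262 in MEFs, and 0.709 in iPS-cNSCs against NED-NSCs, and under median scaling -0.23, -0.0233, 0.14, -0.174, and -0.164 in the same order. These settings and neqc were not run for comparisons with iPS-NSCs, whose signal columns were not matched by name.

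With 1 array left out, sterol genes called ranged from 4 to 6 in iPS-NSCs #1, 4 to 5 in iPS-NSCs #3, 3 to 4 in their mean, 2 to 4 in iPS-cNSCs, 6 to 8 in ESCs, 2 to 3 in MEFs, 1 to 2 in iPS-cNSCs against iPS-NSCs, and 2 to 4 in iPS-cNSCs against NED-NSCs, and stayed at 0 in NED-NSCs and 2 between the lines. Fatty acid genes ranged from 1 to 2 in MEFs and in iPS-cNSCs against NED-NSCs, and stayed at 4 in ESCs and at 0 in the other comparisons. The median of the fatty acid genes in iPS-NSCs #1 was -0.0897 with all arrays, 0.0242 without iPS-NSCs #1 replicate 1, and -0.0797 without iPS-NSCs #1 replicate 2, the highest and lowest with 1 array left out. The cause of these changes was not tested.

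Replicate numbers were shared by all groups. The differences between replicates 1 and 2 correlated from -0.24 to 0.12 over 21 pairs of groups (3 above 0.1 and 1 below -0.1). These values show no pairing common to all groups. They cannot tell whether some groups shared a batch, which the labels do not give. With the replicate block the counts were 6, 5, 4, 2, 0, 7, and 2 sterol genes in the comparisons with brain-NSCs, as without it.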
